A study of Arabidopsis thaliana with 6 samples.

Results

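The CBF regulon and cold response genes described here are 10 genes of *Arabidopsis thaliana*, fixed by their identifiers, of the 37184 gene identifiers in the count files: the transcription factor genes *CBF1* (AT4G25490), *CBF2* (AT4G25470) and *CBF3* (AT4G25480), the cold-responsive genes *COR15A* (AT2G42540), *COR15B* (AT2G42530), *COR47* (AT1G20440), *KIN1* (AT5G15960), *KIN2* (AT5G15970) and *RD29A* (AT5G52310), and the zinc-finger gene *ZAT12* (AT5G59820). RNA-seq counts were read in 6 libraries of 14-day-old seedlings, 3 of Columbia-0 wild type (WT) and 3 labelled *nol12-4*, a line in the same Columbia-0 background with a T-DNA insertion in *AtNOL12*, the gene of a nucleolar protein studied for its part in pre-rRNA processing. Seeds of both genotypes were kept in the cold for a short stratification before germination and then grown on MS plates in long days; neither genotype was given a cold treatment, so the values are those of unchilled seedlings. The line is a single T-DNA insertion line and the transgenic complementation line of the study is not analysed here.

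CBF proteins are AP2/ERF transcription factors whose genes are switched on within minutes to hours of a drop in temperature. They bind the C-repeat/dehydration-responsive element (CRT/DRE) in front of cold-responsive (COR) genes, whose products, among them hydrophilic chloroplast proteins and dehydrins, help membranes and enzymes to survive freezing. The level of *CBF* transcripts also follows the time of day, because clock proteins bind their promoters. *ZAT12* is induced in parallel with the *CBF* genes by cold, by strong light and by reactive oxygen, and in Arabidopsis its overexpression lowers *CBF* transcript levels.

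The members lie in tandem groups of related genes, as read in the RefSeq annotation of TAIR10.1. *CBF1* (chr4:13021780-13022996), *CBF3* (chr4:13018010-13019400) and *CBF2* (chr4:13015250-13016235) follow each other on the minus strand of chromosome 4, each in 1 exon, with 2379 bases between the first pair and 1774 bases between the second. Their coding sequences are 85 to 86.7% identical. *COR15A* (chr2:17710441-17712330) and *COR15B* (chr2:17708593-17710433) are annotated 7 bases apart on the minus strand of chromosome 2 and share 82.6% of coding bases, and *KIN1* (chr5:5209717-5210826) and *KIN2* (chr5:5211719-5212743) lie 892 bases apart on the plus strand of chromosome 5 and share 95%. *RD29A* (chr5:21240717-21243644) neighbours *RD29B*, *COR47* (chr1:7084409-7086873) neighbours the dehydrin gene *ERD10*, and *ZAT12* (chr5:24102814-24103794) stands alone with 1 exon. Pairs of reads with several possible places of alignment were left uncounted. Of the 50-base windows in the exons of a member, 3.95% occurred elsewhere in the genome for *CBF2*, 2.48% for *CBF1*, 0.596% for *CBF3*, 0.166% for *KIN2*, 0.147% for *KIN1* and 0 for the others, so a small part of the *CBF* and *KIN* signal may be lost or, through sequencing errors, counted for the wrong copy. On the opposite strand AT4G07385 overlaps *CBF3* and AT2G42520 overlaps *COR15B*; counting used the strand.

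The CRT/DRE, bound by CBF proteins, is shown because it is what links the target genes to the *CBF* genes. The 500 bases before the annotated start of each gene were searched on both strands for its core CCGAC, which 21.4% of 27443 protein-coding promoters held. The core occurred in 4 of the 10 members, 7 times in all, and each of these 7 matches also had A or G before it, the longer form that 12.6% of promoters held. The sequences below are 30 bases of the RefSeq TAIR10.1 genome, printed on the strand that reads the core, with the core in capitals and its distance from the gene start in bases.
*COR15A*, -142 (chr2:17712456-17712485, plus strand): acacaaaataaaCCGACaaggttgcaagcc
*COR15A*, -79 (chr2:17712392-17712421, minus strand): ttaacttgttggCCGACatacatttgtttc
*COR15B*, -265 (chr2:17710682-17710711, plus strand): tggtgtggcataCCGACttctagatgatat
*COR47*, -368 (chr1:7087225-7087254, plus strand): gtggtcactctaCCGACacatgataccaaa
*RD29A*, -140 (chr5:21240565-21240594, plus strand): aatagacatggaCCGACtactaataatagt
*RD29A*, -90 (chr5:21240615-21240644, plus strand): ataaatatcataCCGACatcagtttgaaag
*RD29A*, -33 (chr5:21240672-21240701, plus strand): aaagatatactaCCGACatgagttccaaaa
Promoters with 2 or more cores, as in *COR15A* and *RD29A*, made up 3.74% of all. The site of *COR15B* lies inside the annotated *COR15A* transcript, since the genes almost touch. The windows of *KIN1* and *KIN2* held none.

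The evening element, a site of clock proteins, is shown because the clock genes of these libraries differed strongly, as described below. The search used its letters AAATATCT, without the further A that stands in front in the full element. Below, evening element means this shorter form. The form occurred in 5 members, 9 times in all, against 8.86% of promoters with 1 or more and 0.758% with 2 or more. In the sequences below it is in capitals, again on the strand that reads it. The further A precedes the matches of *CBF1* at -493 and -396, *CBF2* at -393 and *ZAT12* at -152, and no other.
*CBF1*, -493 (chr4:13023471-13023500, plus strand): ttcgctgacaaAAATATCTctctcgttacc
*CBF1*, -396 (chr4:13023374-13023403, plus strand): taattcccacaAAATATCTcaatctcaata
*CBF1*, -81 (chr4:13023059-13023088, plus strand): ataatagacatAAATATCTctgtgaaatga
*CBF2*, -473 (chr4:13016690-13016719, minus strand): ttttaggacacAAATATCTaatctcactat
*CBF2*, -393 (chr4:13016610-13016639, minus strand): agagcatttgaAAATATCTcgtttcacgga
*CBF2*, -51 (chr4:13016268-13016297, minus strand): cacaaatatccAAATATCTtccggccaata
*CBF3*, -199 (chr4:13019581-13019610, minus strand): ctttgttgcacAAATATCTactctcccaat
*KIN1*, -62 (chr5:5209644-5209673, minus strand): tgagtctttcgAAATATCTcgaagcctcta
*ZAT12*, -152 (chr5:24102651-24102680, plus strand): atatccaaataAAATATCTttaaaaagaaa
No window held both the evening element and the CRT/DRE core. All 3 *CBF* windows and that of *ZAT12* held the shorter form of the evening element and no core. *COR15A*, *COR15B*, *COR47* and *RD29A* held the core and no evening element. The ABRE core ACGTG, bound by abscisic acid-responsive factors, was in 5 members and in 35.5% of promoters, and the CAMTA site CGCGT, bound by calmodulin-binding activators of the *CBF* genes, in 2 members and in 11.7% of promoters. These are matches of letters, not mapped binding sites.

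**Figure D1:**
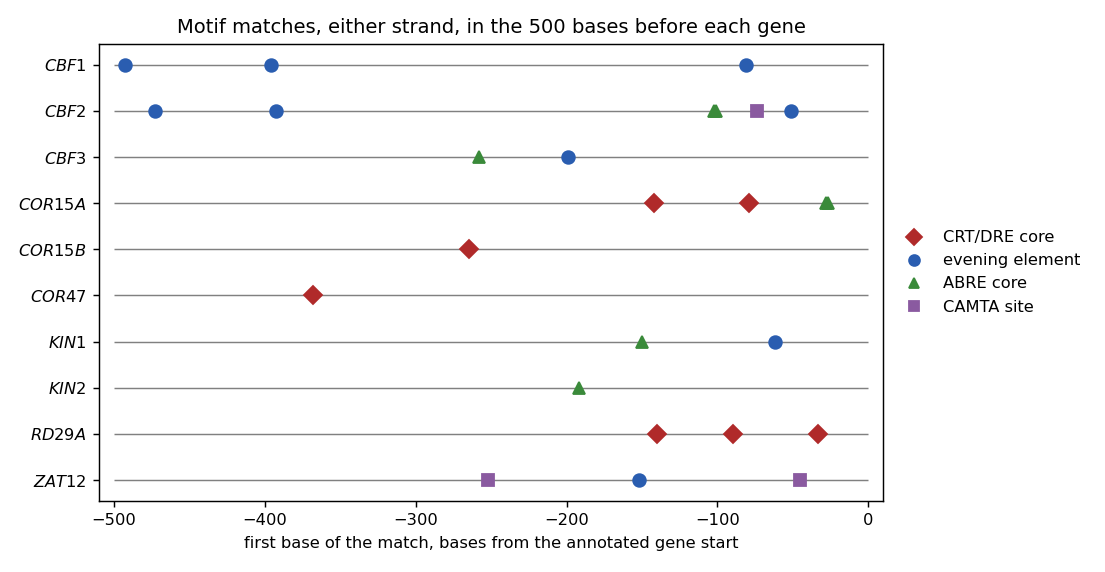
Matches to the CRT/DRE core, the evening element in its shorter form AAATATCT, the ABRE core and the CAMTA site in the 500 bases before each member. The x axis is the distance in bases from the annotated gene start, each row is a gene and each symbol is 1 match on either strand; the evening element stands in the rows of the 3 *CBF* genes, *KIN1* and *ZAT12*, and the CRT/DRE core in those of *COR15A*, *COR15B*, *COR47* and *RD29A*.

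The libraries held 56627497 to 75001252 counts on genes, of which 47.0 to 56.6% fell on genes of the plastid and mitochondrial genomes, and a floor of 3 counts corresponded to 0.0388 to 0.0513 CPM (read counts put on a common scale of library size, here with TMM factors, which correct for differences in library composition). *AtNOL12* itself was not lower in the libraries labelled *nol12-4*, with 1186, 770 and 2142 counts against 663, 642 and 894 in the WT libraries. The counts sum over the gene, with no value per exon, so they are no check of the labels. In the study *AtNOL12* mRNA was compared by northern blot, and *nol12-4* was chosen because another line, *nol12-3*, had a level similar to WT. Why the counts here were not lower was not tested. The *nol12-4* libraries were not alike. *LHY* and *CCA1*, the morning-expressed repressors of the plant clock, had 4314 and 7122 counts in *nol12-4* replicate 1 and 2896 and 5506 in replicate 2, but 75 and 189 in replicate 3, close to the 71 to 83 and 78 to 236 of WT. Results that rest on *nol12-4* replicate 3 are therefore given with and without it. In the seedlings, which hold many cell types, fewer cells that express a gene and less RNA per cell cannot be told apart. The summed level of 5 green tissue markers was 5210 to 5920 CPM in WT and 7360 to 13600 in *nol12-4*, that of 5 root markers 652 to 899 and 1020 to 1100, and that of 5 flower and seed markers 3.22 to 5.95 and 3.71 to 5.97, with the seed storage gene *SESA3* at 0 throughout. Most of the root sum was *PYK10* (643 to 889 CPM in WT), and most of the flower and seed sum was *SEP3* (3.15 to 5.92 CPM in WT). At low counts, *AP3* (0, 1 and 0 in WT replicates 1 to 3, 7, 10 and 10 in *nol12-4*) lay above WT in every *nol12-4* library. So did *CRA1* (2, 2 and 1 in WT, 8, 7 and 18 in *nol12-4*), while *AG* and *SEP3* overlapped. How far tissue make-up bears on the cold genes was not tested.

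None of the 10 cold genes passed edgeR's quasi-likelihood test of genotype at an adjusted p under 0.05 (Benjamini-Hochberg over all genes). All 10 passed the filter on low counts, and of the 21705 genes tested 49 (0.226%) were higher and 15 (0.0691%) lower in *nol12-4*. Before adjustment, at p under 0.05 with edgeR, 2 members were higher (*COR15A* and *KIN1*) and 0 lower, against 12.1% and 7.91% of all genes. DESeq2, the tool of the study, called 1 member higher (*KIN1*) and 0 lower, against 6.20% higher and 3.21% lower of 24147 genes. The estimates were above 0 for 7 members and below 0 for 3, and their median log2 fold change was 0.37, against -0.01 over all genes tested. Only the values of *KIN1* lay above WT in every *nol12-4* library, and 0 members lay below in every library, while 14.5% of all genes tested lay above and 11.6% below. These shares of the members are not read as a difference from genes at large.

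**Figure D2:**
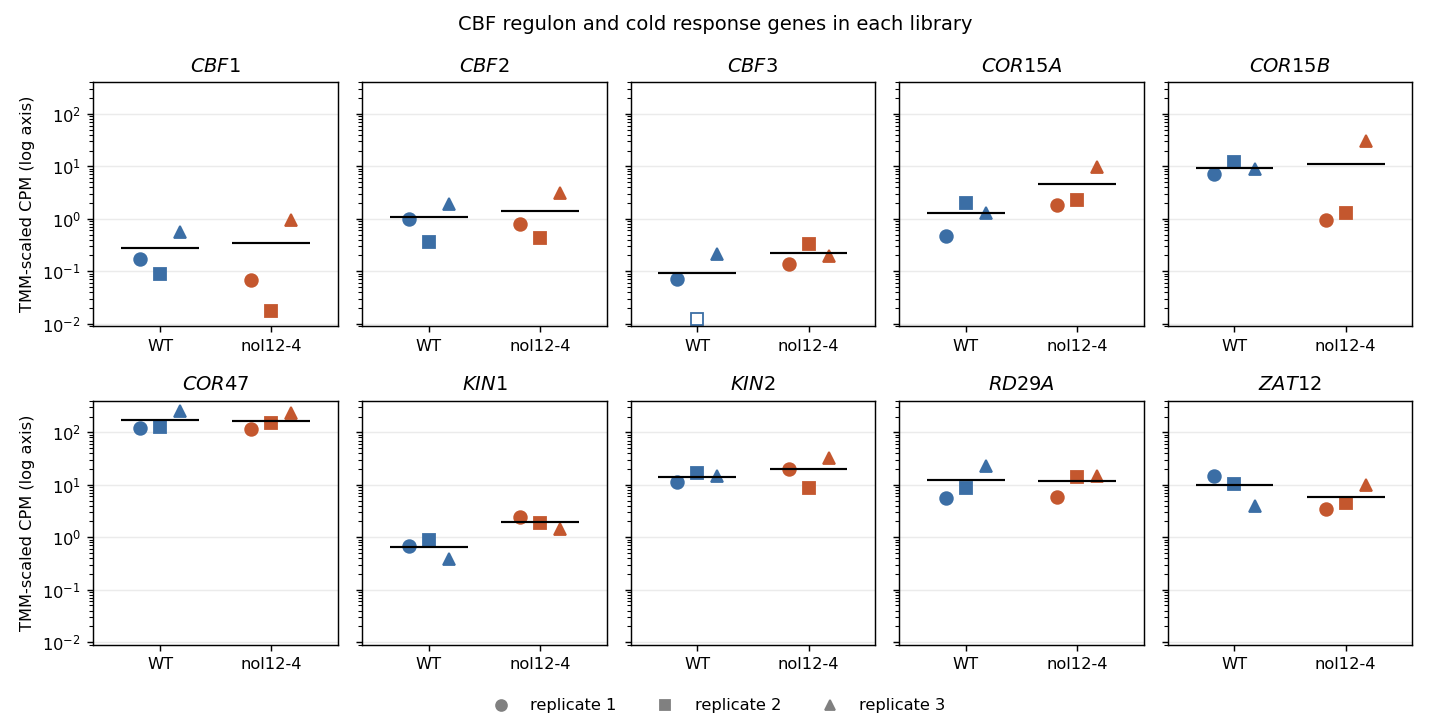
TMM-scaled CPM of the 10 members, on a log axis, in the 3 WT (blue) and 3 *nol12-4* (orange) libraries, with circles, squares and triangles for replicates 1, 2 and 3 and a line at the mean of each genotype. The open square for *CBF3* marks WT replicate 2, which had 0 counts and is drawn at the foot of the axis; the genotypes overlap in every panel except *KIN1*.

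The 3 *CBF* genes had low counts in both genotypes, and *CBF3* had the lowest mean in each. In *nol12-4* replicates 1 and 2, however, *CBF1* (5 and 1 counts) was lower than *CBF3* (10 and 19). In the order of replicates 1 to 3, used for all values below, *CBF2* had 69, 24 and 128 counts in WT and 58, 25 and 238 in *nol12-4*, or 1.08 ± 0.780 and 1.43 ± 1.44 CPM (mean ± SD, n = 3 each). Its highest value was in *nol12-4* replicate 3 and its lowest in WT replicate 2, and the groups overlapped, with a log2 fold change of 0.41 (SE 0.82, adjusted p = 0.810, edgeR). *CBF1* was likewise highest in *nol12-4* replicate 3 but lowest in *nol12-4* replicate 2, with 12, 6 and 38 counts in WT and 5, 1 and 72 in *nol12-4*. Its log2 fold change was 0.32 (SE 1.24, adjusted p = 0.908, edgeR). Both estimates hung on single libraries: without *nol12-4* replicate 3 they were -2.59 for *CBF1* and -0.83 for *CBF2*, and without WT replicate 3 they were 1.40 and 1.11.

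*CBF3* had 5, 0 and 14 counts in WT and 10, 19 and 15 in *nol12-4*, so that the genotypes overlapped. The log2 fold change was 1.2 (SE 0.98, adjusted p = 0.522, edgeR), and 2.53 without WT replicate 3. Unlike *CBF1* and *CBF2*, it was not highest in *nol12-4* replicate 3 but in replicate 2. The long non-coding RNA gene AT4G07385 on the opposite strand of *CBF3* had 7, 1 and 10 counts in WT and 0, 0 and 4 in *nol12-4*. Summed over the 3 genes, *CBF* counts were 86, 30 and 180 in WT and 73, 45 and 325 in *nol12-4*. *CBF2* took 71.1 to 80.2% of them in each library but *nol12-4* replicate 2, where it took 55.6% and *CBF3* 42.2% of 45 counts. The standard errors of the 3 log2 fold changes were 0.82 to 1.24, so differences of that size lay within the spread between libraries.

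The related DREB1 genes, which encode close relatives of the CBF proteins, were nearly silent except in 1 library. *DDF1*, a gene known for its response to salt, had 16, 0 and 6 counts in WT and 0, 0 and 437 in *nol12-4*. *DDF2* had 0 counts in all WT libraries and 0, 0 and 103 in *nol12-4*, and *CBF4*, which responds to drought rather than cold, had 0 in WT and 1, 0 and 4. None of the 3 passed the filter on low counts of the main test. The *nol12-4* library with *DDF1* and *DDF2* counts was replicate 3, the one in which *CBF1*, *CBF2*, *COR15A*, *COR15B* and *KIN2* were also at their highest of the 6.

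*COR15A* and *COR15B* encode small hydrophilic proteins of the chloroplast stroma that stabilise membranes during freezing. *COR15A* had 34, 133 and 87 counts in WT and 134, 133 and 749 in *nol12-4*, or 0.479, 1.99 and 1.30 CPM against 1.82, 2.27 and 9.69. The highest value was in *nol12-4* replicate 3, and replicates 1 and 2 were near the highest WT library. The log2 fold change of 1.87 (SE 0.76) did not pass (adjusted p = 0.228, edgeR, and 0.0618, DESeq2) and was 0.70 without *nol12-4* replicate 3. That was the lowest estimate with 1 library left out, and the highest was 2.37, without WT replicate 2. DESeq2 called the gene in 2 of these 6 subsets (adjusted p = 0.0374 to 0.506).

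*COR15B* differed widely between libraries of one genotype. It had 499, 808 and 597 counts in WT and 69, 76 and 2356 in *nol12-4*, or 7.03, 12.1 and 8.90 CPM against 0.938, 1.30 and 30.5. In *nol12-4*, replicates 1 and 2 were below and replicate 3 above every WT library. With all libraries the log2 fold change was 0.23 (SE 1.16, adjusted p = 0.934, edgeR). Without *nol12-4* replicate 3 it was -3.07 and passed the test (adjusted p = 0.00682, edgeR), the one call of a member that edgeR made in any of the 6 subsets that leave out 1 library. In that subset edgeR called 601 genes lower and 1038 higher of 22033 tested, so the call is not particular to *COR15B*. Replicate 3 was singled out by values of these same libraries, so the call is a description only.

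Both copies were highest in *nol12-4* replicate 3, while their ratio differed between libraries; this comparison was chosen after the values were seen. *COR15B* supplied 93.6, 85.9 and 87.3% of the counts of the pair in WT and 34.0, 36.4 and 75.9% in *nol12-4*. Every *nol12-4* library, replicate 3 included, lay below every WT library, and the exact 95% binomial intervals, which cover counting error only, reached from 83.5 to 95.5% in WT and from 27.5 to 77.4% in *nol12-4*. The log2 ratio of *COR15B* to *COR15A* was 3.09 ± 0.69 in WT and -0.04 ± 1.47 in *nol12-4* (SD, n = 3 each; p = 0.1, two-sided exact permutation test, the smallest p that 3 against 3 libraries allow; 0.4 adjusted over the 4 pairs compared).

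**Figure D3:**
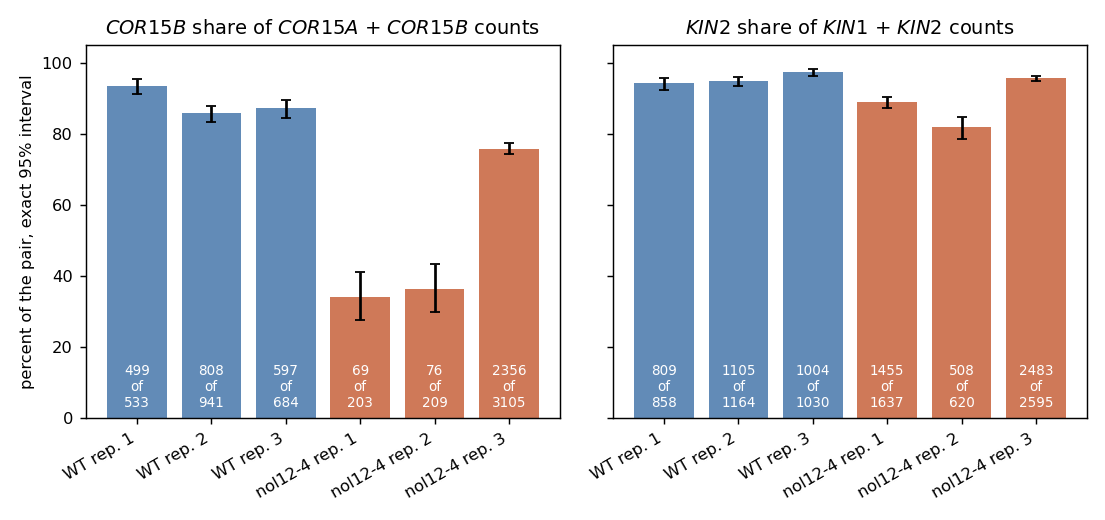
Share of *COR15B* in the summed counts of *COR15A* and *COR15B* (left) and of *KIN2* in those of *KIN1* and *KIN2* (right), in percent, for each WT (blue) and *nol12-4* (orange) library. Error bars are exact 95% binomial intervals for counting error and the numbers in the bars are counts; the *COR15B* share is 85.9 to 93.6% in WT and 34.0 to 75.9% in *nol12-4*.

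*KIN1* was the one member whose genotypes did not overlap. *KIN1* and *KIN2* encode small, alanine-rich, hydrophilic proteins induced by cold and abscisic acid. *KIN1* had 49, 59 and 26 counts in WT and 182, 112 and 112 in *nol12-4*, which is 0.654 ± 0.250 and 1.95 ± 0.513 CPM (SD, n = 3 each). Its highest value was in *nol12-4* replicate 1, and in contrast to *COR15A* the gene did not depend on replicate 3. The log2 fold change of 1.57 (SE 0.39) missed the threshold with edgeR (adjusted p = 0.0990) and passed with DESeq2 (adjusted p = 0.00427). Leaving out 1 library at a time gave 1.30 to 1.84, and DESeq2 called the gene in 4 of these 6 subsets (adjusted p = 0.00247 to 0.102).

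*KIN2*, the more abundant copy, had 809, 1105 and 1004 counts in WT and 1455, 508 and 2483 in *nol12-4*. The *nol12-4* libraries lay on both sides of WT, and the log2 fold change was 0.50 (SE 0.42, adjusted p = 0.541, edgeR) and -0.01 without *nol12-4* replicate 3. *KIN2* supplied 94.3, 94.9 and 97.5% of the counts of the pair in WT and 88.9, 81.9 and 95.7% in *nol12-4*, shares that overlap (p = 0.3, exact permutation test on the log2 ratio, 0.4 adjusted over the 4 pairs). The coding sequences of this pair are the most alike of those compared.

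*COR47*, which encodes a dehydrin, was the most abundant member and had nearly equal means. It had 8677, 8528 and 17140 counts in WT and 8543, 8777 and 17959 in *nol12-4*, and in each genotype replicate 3 was the highest. Its log2 fold change was -0.02 (SE 0.37, adjusted p = 0.982, edgeR), and -0.35 to 0.41 with 1 library left out. The neighbouring dehydrin gene *ERD10* supplied 20 to 24.5% of the counts of that pair in WT and 23.6 to 27.2% in *nol12-4* (p = 0.2, exact permutation test, 0.4 adjusted over the 4 pairs).

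*RD29A*, induced by cold, drought and abscisic acid through both CRT/DRE and abscisic acid-responsive routes, had 400, 578 and 1551 counts in WT and 429, 832 and 1133 in *nol12-4*. The highest library was WT replicate 3 and the groups overlapped. The log2 fold change was -0.11 (SE 0.56, adjusted p = 0.933, edgeR), and 0.69 without WT replicate 3. *RD29B*, the copy that responds mainly to abscisic acid, had 12, 4 and 19 counts in WT and 10, 23 and 12 in *nol12-4*, and *RD29A* supplied 97.1 to 99.3% of the counts of the pair (p = 0.7, exact permutation test).

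*ZAT12* was the member with the lowest estimate. It had 1051, 708 and 262 counts in WT and 254, 260 and 774 in *nol12-4*, so WT replicate 3 was as low as *nol12-4* replicates 1 and 2, and *nol12-4* replicate 3, at 10 CPM, was close to WT replicate 2 at 10.6. The log2 fold change was -0.71 (SE 0.55, adjusted p = 0.501, edgeR). It stayed below 0 in all 6 subsets that leave out 1 library, from -1.31 to -0.28. *ZAT12* was lowest of the WT libraries in replicate 3, the WT library in which *CBF1*, *CBF2*, *CBF3*, *COR47* and *RD29A* were highest. Among the *nol12-4* libraries this was not so. There *ZAT12* was highest in replicate 3, as were *CBF1*, *CBF2*, *COR47* and *RD29A*, while *CBF3* was highest in replicate 2.

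**Figure D4:**
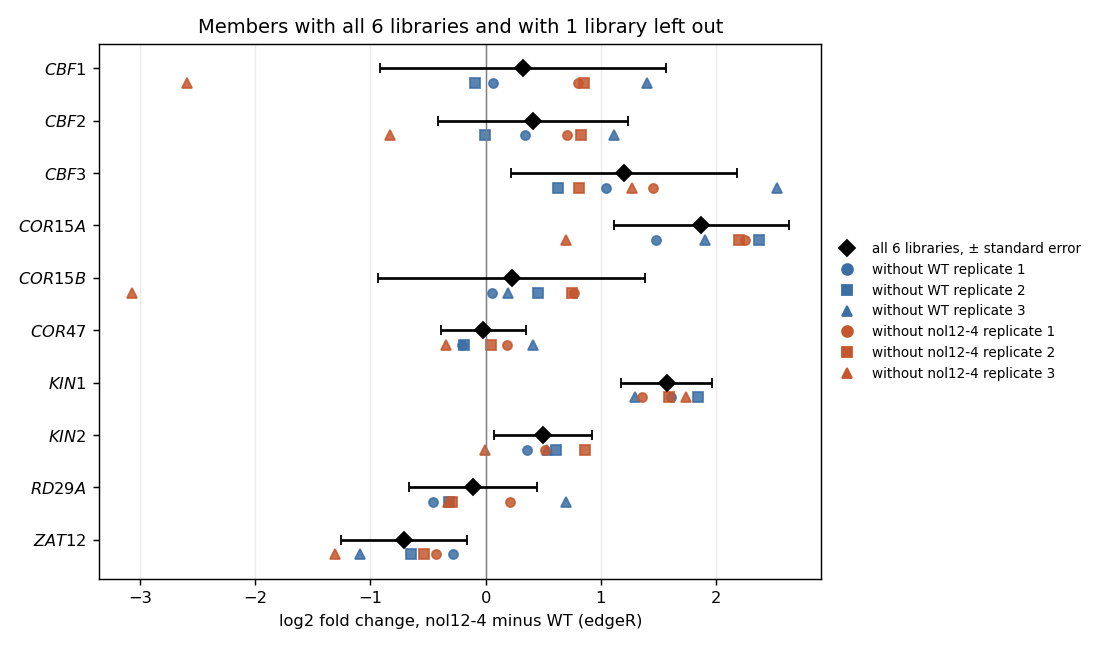
Log2 fold change (*nol12-4* minus WT, edgeR) of each member with all 6 libraries (diamonds, with ± 1 standard error) and with 1 library left out (blue, a WT library; orange, a *nol12-4* library). The orange triangles, without *nol12-4* replicate 3, lie far to the left for *CBF1* (-2.59) and *COR15B* (-3.07), while *KIN1* stays between 1.30 and 1.84.

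Levels of the members were compared per kb of annotated exon, as CPM per kb. In WT the order of the means was *COR47* (72.6 ± 32.5), *KIN2* (19.1 ± 3.52), *ZAT12* (9.96 ± 5.6), *COR15B* (5.90 ± 1.62), *RD29A* (4.68 ± 3.51), *CBF2* (1.1 ± 0.792), *COR15A* (0.793 ± 0.478), *KIN1* (0.789 ± 0.301), *CBF1* (0.226 ± 0.210) and *CBF3* (0.0669 ± 0.0764; SD, n = 3). The WT libraries of neighbours overlapped for *ZAT12* and *COR15B*, *COR15B* and *RD29A*, *CBF2* and *COR15A*, *COR15A* and *KIN1*, and *CBF1* and *CBF3*. *COR47* was above *KIN2*, *KIN2* above *ZAT12*, *RD29A* above *CBF2* and *KIN1* above *CBF1* in all 6 libraries. By the means in *nol12-4* the order was the same at the top and at the bottom, and *COR15A* (2.90 ± 2.79) and *KIN1* (2.35 ± 0.619) stood before *CBF2* (1.45 ± 1.46). Through replicate 3 alone, *CBF1* stood before *CBF3* and *COR15A* before *KIN1*. In *nol12-4* replicates 1 and 2 *CBF1* (0.0558 and 0.014) was below *CBF3* (0.0977 and 0.233). *COR15A* (1.15 and 1.44) was below *KIN1* (2.98 and 2.31) in these 2 libraries. *COR15B* (6.88 ± 10.7) also stood before *ZAT12* (6.08 ± 3.6), through replicate 3 alone (0.592, 0.82 and 19.2 in replicates 1 to 3).

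Taking the members as a list, their median deviation from the WT mean was -0.30, -0.02 and 0.47 log2 units in the WT libraries and -0.30, -0.39 and 1.26 in the *nol12-4* libraries. *nol12-4* replicate 3 was the highest of the 6 libraries for 5 members and the lowest for 0. WT replicate 3 was the highest for 2, *COR47* and *RD29A*.

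Several clock genes and evening-phased cold genes set *nol12-4* replicates 1 and 2 apart from replicate 3. *COR15B* did so too, but its replicate 3 (30.5 CPM) was not near WT and lay above every WT library (7.03 to 12.1 CPM). Besides *LHY* and *CCA1*, *PRR9*, a day-phased repressor of the clock, had 61, 25 and 128 counts in WT and 1699, 1730 and 60 in *nol12-4*, and DESeq2 called all 3 genes higher (adjusted p = 0.00248, 0.00270 and 0.0234 for *LHY*, *CCA1* and *PRR9*), in 4, 3 and 2 of the 6 subsets that leave out 1 library. These calls rest on replicates 1 and 2, since replicate 3 was within or below the WT range for *LHY*, *CCA1* and *PRR9*. *TOC1*, an evening gene of the clock, had 9237, 8389 and 9481 counts in WT and 1082, 764 and 9247 in *nol12-4*. The evening-complex gene *ELF4* had 252, 202 and 115 counts in WT and 0, 0 and 204 in *nol12-4*; both genes, like *PRR7* and *COR27* below, were named after their values were seen. Not every clock gene split in this way: *PRR7*, a day-phased gene, had 31.3, 31.6 and 121 CPM in WT and 73.5, 84.7 and 45.8 in *nol12-4*, within the WT range in each library.

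*COR27* and AT4G33980, known as *COR28*, are cold-induced genes under evening control by the clock. *COR27* had 4113, 3785 and 4765 counts in WT and 31, 13 and 4732 in *nol12-4*, and AT4G33980 had 2802, 2065 and 4652 in WT and 38, 28 and 2363 in *nol12-4*. For both, replicate 3 was near the WT libraries and the other *nol12-4* libraries were far below. AT4G33980 did not pass with all libraries (log2 fold change -2.14, SE 1.41, adjusted p = 0.433, edgeR) and passed without *nol12-4* replicate 3 (-6.55, adjusted p = 0.00261, edgeR). Replicate 3 was set apart by the clock genes of these same libraries, so this pass is no support for a genotype difference. *GRP8*, an RNA-binding protein gene of the same list, had 6.76, 6.53 and 12.9 CPM in WT and 4.62, 5.91 and 4.31 in *nol12-4*, with replicate 3 the lowest, and did not pass (log2 fold change -0.82, SE 0.30, adjusted p = 0.195, edgeR). The evening element, in the shorter form searched, was in 3 of the 4 evening-phased windows and in 4 of 10 of those of clock genes. The part of the clock genes in the values of *COR15B* and the other members was not tested; the time of day of each harvest is not given in the sources used here.

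**Figure D5:**
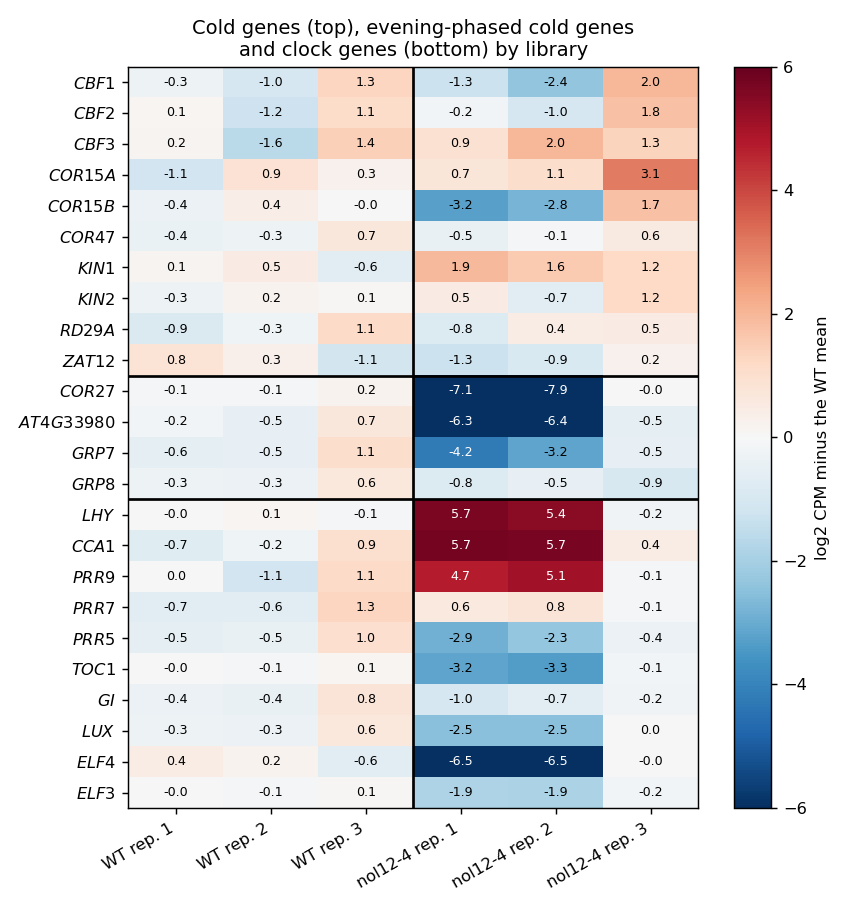
Log2 CPM minus the WT mean in each library (columns) for the 10 members (top), the 4 evening-phased cold genes (middle) and the 10 clock genes (bottom); red is above and blue below the WT mean, and the colour scale ends at 6 in both directions. *nol12-4* replicates 1 and 2 are alike, with *LHY* and *CCA1* high and *COR27* and AT4G33980 low, and *nol12-4* replicate 3 is near WT for these genes.

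The wider pathway was read from 75 genes in 8 lists. Of the 71 that passed the filter, edgeR called 0 in either direction. Before adjustment 8 were higher and 9 lower (p under 0.05, edgeR), against 12.1% and 7.91% of all genes tested. DESeq2 called 11 of 68 genes, 8 higher and 3 lower, against 6.20% and 3.21% of all genes. Of the 71, DESeq2 gave no p for *COR27*, *GRP7* (of the evening-phased list) and *TOC1*. With edgeR these were not called (adjusted p = 0.619, 0.300 and 0.368). The median log2 fold change of the 71 genes was -0.31, and 5 lay above and 13 below WT in every library, against 14.5% and 11.6% of all genes tested. Of the 12 other CBF-regulated cold genes, DESeq2 called *LTI30* and *GOLS3* higher and *COR413IM1* lower. *LTI30*, which encodes a membrane-binding dehydrin, had 8.78 ± 0.559 CPM in WT and 16.3 ± 3.07 in *nol12-4* (log2 fold change 0.89, SE 0.17, adjusted p = 0.00126, DESeq2; 0.0690, edgeR). DESeq2 called it in all 6 subsets that leave out 1 library. *GOLS3*, which makes galactinol for raffinose synthesis in the cold, had 0.246 ± 0.130 and 0.901 ± 0.311 CPM (log2 fold change 1.86, SE 0.52, adjusted p = 0.0153, DESeq2), and DESeq2 called it in 2 of the 6 subsets.

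*COR413IM1*, the gene of a chloroplast inner envelope protein, had 2.1, 1.75 and 14.8 CPM in WT and 0.707, 0.957 and 1.22 in *nol12-4* (log2 fold change -2.69, SE 0.85 with edgeR; adjusted p = 0.00456, DESeq2). WT replicate 3 set the size of this difference, which was -1.0 without it. The CRT/DRE core occurred in 7 of the 12 promoters of this list, against 21.4% of all protein-coding promoters. Among the 7 were those of *LTI30* with 3 copies, *GOLS3* with 2 and *COR413IM1* with 1.

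Upstream of the *CBF* genes, 0 of 14 regulators were called by edgeR or DESeq2. Before adjustment, edgeR's p was under 0.05 for 2 lower genes (*CAMTA2* and *CAMTA3*) and 0 higher ones, against 7.91% lower and 12.1% higher of all genes tested. The estimates reached from 0.95 for *PIF4*, a bHLH factor, to -1.16 for *MYB15*, a repressor of *CBF* genes. *PIF4* had 2.20, 1.30 and 21.0 CPM in WT and 17.9, 23.0 and 6.36 in *nol12-4*, and its estimate was 3.16 without WT replicate 3. *ICE1*, the bHLH activator of *CBF3*, had 24.3 ± 3.43 CPM in WT and 25.6 ± 4.48 in *nol12-4*. Of the 12 first-wave transcription factors, which rise with the *CBF* genes in the cold, DESeq2 called 1, *CRF3*, a cytokinin response factor, with 3.12 ± 0.804 CPM in WT and 6.96 ± 0.739 in *nol12-4* (log2 fold change 1.16, SE 0.24, adjusted p = 0.000941, DESeq2; 0.0752, edgeR). It was called by DESeq2 in all 6 subsets. The other 11 were not called, and 9 of the 12 estimates were below 0, against 11060 of the 21705 genes tested. The list's median per library was -1.03 and -0.70 log2 units in *nol12-4* replicates 1 and 2 and 0.33 in replicate 3.

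Of 12 abscisic acid and dehydration genes DESeq2 called *RD22*, a dehydration-induced gene, higher (log2 fold change 1.29, SE 0.32, adjusted p = 0.00594, DESeq2) and *ABI1*, a phosphatase that restrains abscisic acid signalling, lower (-0.54, SE 0.15, adjusted p = 0.0379, DESeq2). Of the 7 oxidative stress genes tested alongside *ZAT12*, DESeq2 called the catalase gene *CAT2* higher and the ferritin gene *FER1* lower. *CAT2* had 171, 164 and 208 CPM in WT and 805, 1010 and 222 in *nol12-4*, so replicate 3 was again close to WT. *FER1* had 103, 129 and 286 CPM in WT and 43.7, 63.6 and 93.4 in *nol12-4* (log2 fold change -1.37, SE 0.44, adjusted p = 0.0211, DESeq2), and -0.79 without WT replicate 3. With 1 library left out, DESeq2 called *CAT2* in 5 of the 6 subsets, *RD22* in 4, *FER1* and *COR413IM1* in 3 and *ABI1* in 1. *APX1*, the cytosolic ascorbate peroxidase linked to *ZAT12* in Arabidopsis, was not called (340 ± 47.3 and 240 ± 71.6 CPM, adjusted p = 0.339, edgeR).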

How the data were processed

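Total RNA of 3 biological replicates per genotype was depleted of rRNA and sequenced as stranded paired-end libraries. Per the labels and the methods of the study, the authors aligned the reads with HISAT2 (version 2.0.4) to TAIR10 and counted them with HTSeq (version 0.6.0) per Araport11 gene; what they deposited are unnormalized whole-number counts per gene. Summary lines of the counter (20.6 to 25.0% of pairs) were left out. p-values measure the spread between these replicates.

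The test of genotype was that of edgeR (version 4.0.16, under R version 4.3.3; TMM, filterByExpr, robust quasi-likelihood F test, two-sided, Benjamini-Hochberg over all genes, threshold 0.05). SE is the log2 fold change divided by the square root of F, taken positive; a log2 fold change and SE beside a DESeq2 p are from edgeR. DESeq2 (version 1.42.0) and limma-voom (limma version 3.58.1) were alternatives, with other scalings, filters, a replicate block and each library left out. Log2 CPM per library used a prior count of 2. The scripts were tested on simulated data.

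The members and the lists were chosen with earlier results of these data known. Named were all members, their neighbours *RD29B* and *ERD10*, in each list the genes called by either tool or else the highest and lowest estimate, and the 5 genes closest to the mean *CBF* and COR profiles by Pearson correlation; further genes named outside this rule (such as *ICE1*, *CAMTA2*, *CAMTA3*, *APX1*, *AtNOL12* and the DREB1 genes) were added after their values were seen. Gene positions and sequences came from RefSeq TAIR10.1. Other experiments of the study were not analysed here.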

Additional observations from a re-analysis of the deposited data

How the results depend on the processing

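With all 6 libraries, edgeR called 0 of the 10 members under median-of-ratios factors, library size alone, organelle genes left out, either other filter and the replicate block; limma-voom called 0 and DESeq2 called 1 (*KIN1*). Pathway genes called numbered 0 with edgeR, 11 with DESeq2 and 1 with library size alone. Over all genes the 64 calls became 2274 with DESeq2, 427 with library size alone (376 higher, 51 lower, 88.1% higher against 76.6%, with the median of all genes at 0.09), 183 without a filter and 1 with the replicate block. Same-numbered libraries did not deviate together (correlations of deviations 0.164, -0.113 and 0.0349 over 21705 genes), so the numbers were not taken as pairs. With the replicate block, estimates changed sign for *CBF1* (-0.51), *COR15B* (-1.64), *COR47* (0.00636) and *RD29A* (0.0328). With limma-voom they did so for *CBF1* (-0.69), *COR15B* (-1.34), *COR47* (0.0015) and *RD29A* (0.0321), and with library size alone for *COR47* (0.0844); the cause was not tested.

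With 1 library left out, edgeR called 0 to 1639 genes, 0 to 1 members and 0 to 23 pathway genes, and DESeq2 0 to 2 members and 3 to 33 pathway genes (8, 9 and 14 without WT replicates 1, 2 and 3, and 4, 3 and 33 without *nol12-4* replicates 1, 2 and 3); each maximum was without *nol12-4* replicate 3, and the 2 members were also reached without WT replicate 2. Over all genes DESeq2 called 1993 higher and 1574 lower of 23397 without *nol12-4* replicate 3. Without *nol12-4* replicate 2 the calls were 554 higher and 297 lower of 23927. The member and pathway counts are not read as a result apart from these totals. Estimates with 1 library left out ranged from -2.59 to 1.40 for *CBF1*, -0.83 to 1.11 for *CBF2*, -3.07 to 0.77 for *COR15B*, -0.35 to 0.41 for *COR47*, -0.00956 to 0.86 for *KIN2*, -0.46 to 0.69 for *RD29A*, -0.23 to 0.95 for *RD29B* and -0.0842 to 0.55 for *ERD10*, and the other 19 genes run in this way kept their sign. Without division by exon length, 5 of the 10 members kept their place in the WT order of levels. The shares of the tandem pairs after division by exon length, added after seeing the data like DESeq2 with 1 library left out, moved by less than the spread between libraries. The *CBF* genes had 0 to 238 counts a library, and the part of depth in their standard errors was not tested.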

Other observations

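The genes whose log2 CPM followed the mean *CBF* profile most closely over the 6 libraries were AT2G35790 (Pearson r = 0.995), *EIF3K* (0.980), *PBS2* (0.979), *PHI-1* (0.978) and *LBD41* (0.974). *LBD41*, a gene induced by low oxygen, had 754, 560 and 1237 counts in WT and 936, 598 and 1731 in *nol12-4*, and *PHI-1*, a phosphate-induced gene family member, 713, 304 and 1459 and 474, 471 and 1905, with the highest value of each in *nol12-4* replicate 3. For the mean profile of the 6 COR genes they were AT5G26110 (0.983), *EYA* (0.973), AT2G01913 (0.972), *MEE12* (0.970) and AT2G37690 (0.970), all highest in *nol12-4* replicate 3. These are the highest of 21705 genes over 6 points that share library and depth, so they are a description only.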
